A study of Mus with 18 samples.

Results

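Mouse RAW264.7 macrophages given lipopolysaccharide (LPS) together with a caffeic acid-cysteine adduct were compared with the same cells given LPS alone. The comparison was chosen by the treatment in the labels and holds 6 of the 18 libraries of the study, with 3 libraries a side. RAW264.7 is an established mouse macrophage-like line, so all libraries share 1 cell line. Both groups received LPS at 1 µg/mL and were collected at 6 h, and the adduct (CACys) was added at 100 µM. The study also sequenced untreated cells and cells that received LPS with the parent caffeic acid (CA), with chlorogenic acid (CGA) or with its cysteine adduct (CGACys), each also at 100 µM, with 3 libraries in each. No group here received CACys without LPS, and none received cysteine alone, so an effect of the adduct on resting cells and an effect of its cysteine were not measured. The labels do not say whether the replicates were separate cultures, and p-values therefore measure the spread between these libraries.

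LPS is a cell wall component of Gram-negative bacteria that macrophages sense through the receptor TLR4 and its partner CD14. The receptor starts NF-kB and MAP kinase signalling and an interferon response, and macrophages then restrain the response with interleukin 10, MAP kinase phosphatases and proteins that destroy cytokine mRNA. Caffeic acid is a plant phenolic acid with a catechol ring, which can be oxidised to a quinone that takes up the thiol of cysteine.

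The labelled cell type was checked against its markers. Of 10 macrophage markers 9 passed the filter on low counts, and none of the 10 was at 0 in either group. Their summed level was 5325 to 5541 CPM, the count scaled to the size of its library with LPS and 4669 to 4770 with LPS and CACys. None of the 13 tested markers of neutrophils, lymphocytes, dendritic cells, mast cells and fibroblasts passed the test, and no epithelial marker had enough counts to be tested. Summed dendritic cell markers were at 5.69 to 7.92 CPM with LPS and 7.90 to 10.6 with the adduct, with Siglech at 0 in both groups. Summed neutrophil markers were at 16.5 to 22.8 CPM and 14.9 to 22.6 CPM, with Elane, Mpo, Ngp, Retnlg and S100a9 at 0 in both. Library totals were 18579427 to 18903406 counts with LPS and 17461616 to 20888157 with the adduct. Replicate 2 of LPS + CA differed from its fellow replicates more than any other library did from its own group, with a chi-square per degree of freedom of 18.2 and 23.3 against 8.59 or less between replicates elsewhere. It is not in the comparison with LPS alone, but it enters the shared estimate of spread.

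The adduct shifted the LPS response in several named directions at once, mostly by less than 2-fold. Many genes of the interleukin 10 axis, interferon-stimulated genes, Fc gamma receptors, early response genes that restrain signalling, D cyclins and hypoxia-responsive glycolysis genes were called higher. The neutrophil-attracting chemokines Cxcl2 and Cxcl3, the chemokine Ccl3, the growth factor gene Csf3, and some genes of lysosomes, serine and glycine synthesis and surface receptors were called lower. Of 13251 tested genes 1890 (14.3%) were called at an adjusted p of 0.05 or less by edgeR's quasi-likelihood test, 1128 (8.51%) higher and 762 (5.75%) lower. Among these 72 rose and 14 fell at least 2-fold, and the median fold was 1.29 for those that rose and 1.19 for those that fell. The median log2 change of all tested genes was 0.01. The first principal component of the 6 libraries held 33.7% of the variance, with LPS libraries at -17.9 to -16.4 and adduct libraries at 12.1 to 20.9. Left out in turn, replicates 1, 2 and 3 of the adduct group lowered the count of called genes to 1249, 1223 and 1694. LPS replicates 1, 2 and 3 lowered it to 1264, 1448 and 1336. Without replicate 2 of the adduct group 748 rose. Without LPS replicate 1, adduct replicate 1 and adduct replicate 2 in turn 481, 473 and 475 fell.

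**Figure D1:**
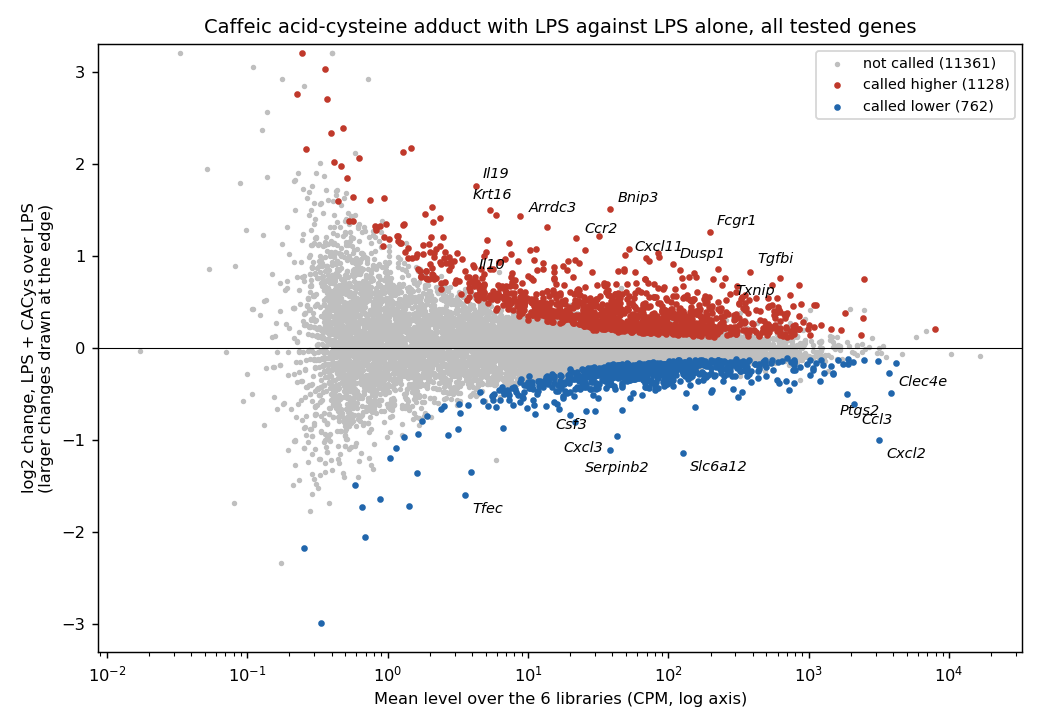
Each point is a tested gene, with its mean CPM over the 6 libraries on a log axis and its log2 change with CACys on the vertical axis. Of the genes called higher (red) 72 changed at least 2-fold and of those called lower (blue) 14, and Cxcl2 and Clec4e fell from among the highest levels.

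Interleukin 10 and the genes it acts through were measured first. Il10, the gene of the main anti-inflammatory cytokine of macrophages (ENSMUSG00000016529, chromosome 1, 131019845 to 131024970), was at 6.13, 5.75 and 5.55 CPM with LPS and 11.2, 11.2 and 11.1 CPM with LPS and CACys. The groups did not overlap, and Il10 rose 1.92-fold (log2 0.94, SE 0.14, adjusted p = 2.56e-05). Untreated cells had 0.475 ± 0.0907 CPM (mean ± SD, n = 3). Il19, a cytokine gene of the same family (ENSMUSG00000016524, chromosome 1, 130932656 to 130945457), was at 1.44, 2.07 and 2.32 CPM and 5.003, 5.95 and 8.72 CPM. It had the largest change among the ranked genes that rose, 3.39-fold (log2 1.76, SE 0.27, adjusted p = 7.2e-05), although its level stayed low. Bcl3, a nuclear NF-kB inhibitor that interleukin 10 induces in macrophages, was at 56.8, 57.2 and 48.9 CPM and 94.2, 85.5 and 85.9 CPM, and rose 1.63-fold (adjusted p = 1.86e-08). Il1rn, the gene of the interleukin 1 receptor antagonist, rose 1.61-fold from 419.7 ± 14.4 to 676 ± 12.8 CPM (n = 3 each). Il4ra, a receptor chain for interleukins 4 and 13, rose 1.48-fold. Socs3, a feedback inhibitor that STAT3 induces, was at 336, 359.7 and 337 CPM and 542, 516 and 446 CPM, and rose 1.46-fold (adjusted p = 0.00014). Stat3 itself rose by 0.39 on the log2 scale, and the STAT3-induced repressors Etv3 and Sbno2 by 0.49 and 0.29. In all 11 of 14 tested members of this list rose and none fell, where 8.51% of all genes rose. The median log2 change was 0.44. The 3 members not called were the kinase genes Jak1 and Tyk2 and the transcription factor gene Nfil3. Leaving out any 1 library left 9 to 11 of them called.

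The list of JAK-STAT feedback genes had 7 of 18 higher and 1 lower, next to 8.51% and 5.75% of all genes. It shares Socs3, Stat3 and Usp18 with other lists. Stat5a, a transcription factor gene downstream of growth factor cytokines, was at 8.83, 7.99 and 7.43 CPM and 13.4, 16.1 and 11.04 CPM and rose by 0.74 (log2, SE 0.14). Socs1 was not called, at a log2 change of 0.46 (adjusted p = 0.140).

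**Figure D2:**
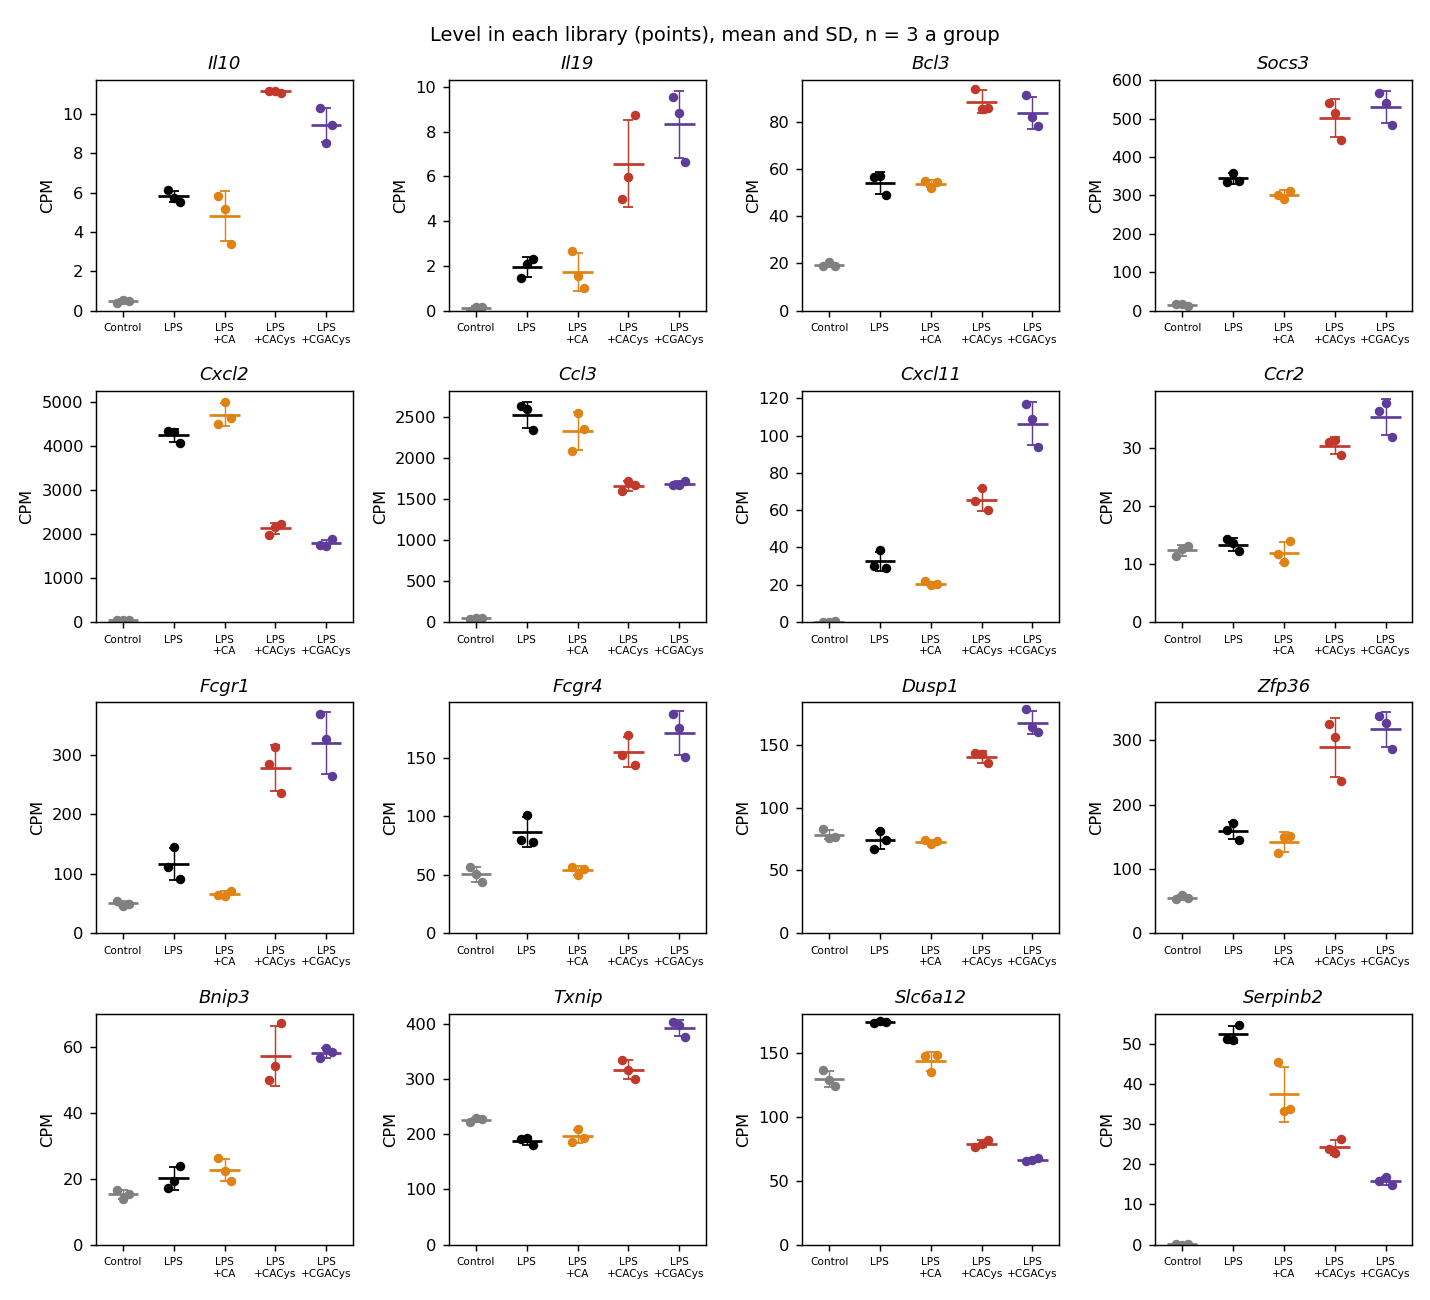
Points are CPM in single libraries for 16 genes in 5 of the study's groups, with the mean as a bar and the SD as whiskers (n = 3). In each panel the LPS + CACys libraries (red) lie clear of the LPS libraries (black), above them in 12 genes and below them in Cxcl2, Ccl3, Slc6a12 and Serpinb2. Over all 13251 tested genes these 2 groups did not overlap in 4277 (32.3%), and the ranked genes among the panels were required not to overlap.

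Chemokine genes moved in both directions. Cxcl2, a neutrophil chemokine and among the most abundant LPS-induced transcripts here (ENSMUSG00000058427, chromosome 5, 90903899 to 90905938), was at 4349, 4317 and 4073 CPM with LPS and 1986, 2163 and 2232 CPM with the adduct. Every adduct library was far below every LPS library, and Cxcl2 fell 1.997-fold (log2 -0.998, SE 0.05, adjusted p = 1.79e-13). Cxcl3, a near neighbour of Cxcl2 with the same receptor, was at 53.3, 54.1 and 64.2 CPM and 27.8, 27.9 and 32.9 CPM and fell 1.94-fold (adjusted p = 4.28e-06). Cxcl1, the third of these neutrophil chemokines, was at 2.10, 2.23 and 1.72 CPM with LPS, and its log2 change of -0.74 was not called (95% interval -1.37 to -0.12, adjusted p = 0.111). Csf3, which encodes the granulocyte growth factor G-CSF, was at 38.0, 37.3 and 36.4 CPM and 22.2, 22.2 and 25.0 CPM and fell 1.61-fold (adjusted p = 9.62e-07). Ccl3, which encodes the macrophage inflammatory protein MIP-1 alpha, was at 2627, 2599 and 2339 CPM and 1596, 1716 and 1667 CPM and fell 1.52-fold (adjusted p = 4.75e-08). Its neighbour Ccl4 was not called, at a log2 change of 0.12 (95% interval -0.18 to 0.42), nor was the monocyte chemokine gene Ccl2, at -0.07 (-0.35 to 0.22).

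Several chemokines for lymphocytes, and some chemokine receptors, were higher. Cxcl11, an interferon-induced ligand of CXCR3, was at 30.2, 38.4 and 29.1 CPM with LPS and 65.0, 71.9 and 59.9 CPM with the adduct, and rose 2.01-fold (adjusted p = 1.06e-06). The other CXCR3 ligands were not called, Cxcl10 at a log2 change of 0.27 (95% interval 0.01 to 0.54) and Cxcl9 at 0.02 (-0.55 to 0.58). Cxcl13, a B cell chemokine, was at 0.607, 0.726 and 0.269 CPM and 2.38, 2.32 and 2.56 CPM, and rose by 2.17 (log2, SE 0.36) at a low level. Ccr2, the receptor for the monocyte chemokine CCL2 (ENSMUSG00000049103, chromosome 9, 124101918 to 124109140), was at 14.3, 13.6 and 12.2 CPM and 31.1, 31.5 and 28.8 CPM. The adduct libraries were all well above the LPS libraries, and Ccr2 rose 2.28-fold (log2 1.19, SE 0.10, adjusted p = 1.69e-09). Ccr1, a receptor for CCL3 and CCL5, rose 2.21-fold from 0.768 ± 0.132 CPM. The call of Ccr1 was lost without LPS replicate 1 (adjusted p = 0.0614) and without adduct replicate 3 (adjusted p = 0.0650). Ccl22, a chemokine of alternatively activated macrophages and dendritic cells, was at 36.4, 36.9 and 30.8 CPM and 53.4, 51.1 and 53.4 CPM and rose 1.52-fold. In the 2 lists, 2 of 11 CXC members rose and 2 fell, and 5 of 17 CC members rose and 1 fell. The shares of all tested genes were 8.51% higher and 5.75% lower.

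Of 18 tested inflammatory cytokine genes Il18 and Il1a rose, Csf3 fell and 15 were not called, next to 8.51% of all genes higher and 5.75% lower. Il18, whose product drives interferon gamma release, was at 10.2, 13.4 and 8.94 CPM and 15.5, 18.3 and 15.9 CPM and rose 1.53-fold (adjusted p = 0.00167). Il1a rose 1.38-fold (adjusted p = 0.0102), a call lost with only the 2 groups in the model (adjusted p = 0.0773). Il12b, the shared subunit of interleukins 12 and 23, was at 45.6, 44.2 and 40.4 CPM and 44.6, 39.2 and 37.2 CPM, and its 95% interval in log2 of -0.26 to 0.04 excluded a change of 2-fold. Tnf was at 1029, 1091 and 786 CPM and 804, 862 and 621 CPM, and its log2 change of -0.35 was not called (95% interval -0.74 to 0.05). The groups overlapped, although each adduct library was below the LPS library of the same number. With a replicate term in the model Tnf was not called either. Il6 was at 118, 127 and 94.0 CPM and 97.7, 113 and 102 CPM, also overlapping, and was not called (log2 -0.12, 95% interval -0.32 to 0.08), except as lower without LPS replicate 3 (adjusted p = 0.0484). For Il23a and Lif the intervals were wider, at -0.84 to -0.00 and -0.77 to 0.08. Of the list 4 members rose without adduct replicate 3, and 4 with a replicate term in the model, and 3 fell without LPS replicate 3.

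**Figure D3:**
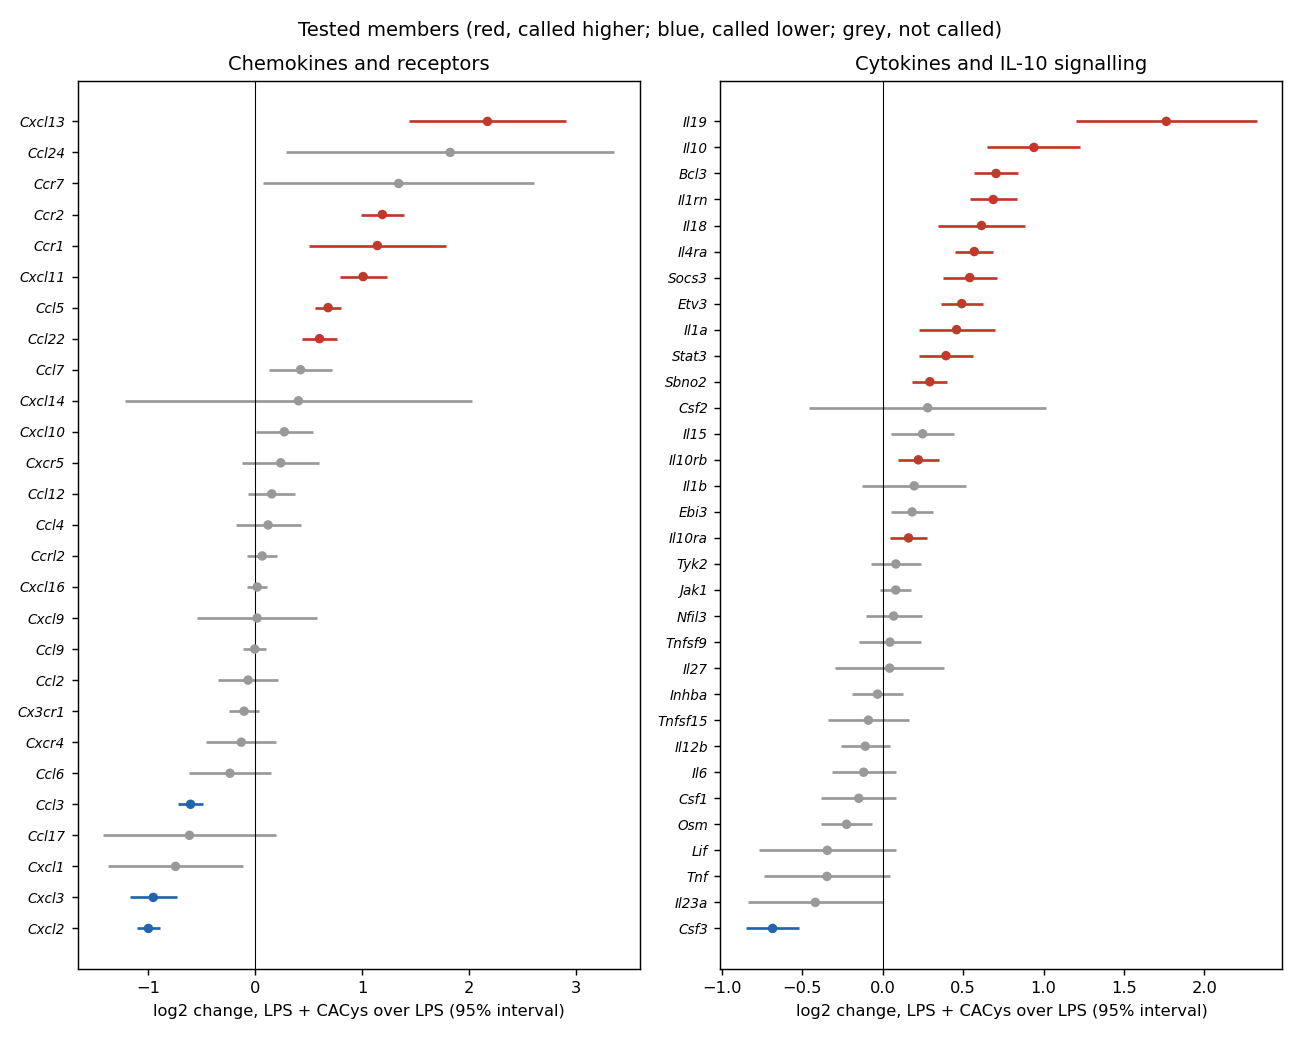
Each point is the log2 change with CACys of a chemokine or receptor (left) or cytokine or interleukin 10 pathway gene (right), with its 95% interval. Red genes were called higher and blue lower, and Cxcl2, Cxcl3, Ccl3 and Csf3 were the members that fell.

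Receptors for immunoglobulin G rose as a family. Fcgr1, which encodes the high-affinity receptor (ENSMUSG00000015947, chromosome 3, 96282909 to 96293969), was at 112, 145 and 91.3 CPM with LPS and 285, 313 and 236 CPM with the adduct, and rose 2.40-fold (log2 1.26, SE 0.17, adjusted p = 0.000219). Fcgr4, an activating receptor, was at 79.8, 101 and 78.3 CPM and 152, 169 and 144 CPM, and rose 1.79-fold (adjusted p = 8.37e-05). Fcgr3, also activating, rose 1.34-fold, and Fcgr2b, the inhibitory receptor, 1.19-fold. Their shared signalling chain Fcer1g fell 1.11-fold, a call lost without LPS replicate 2 or adduct replicate 1 (adjusted p = 0.104 and 0.197). Thus 4 of 6 tested members rose and 1 fell, next to 8.51% and 5.75% of all genes.

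Of 55 interferon-stimulated genes 40 rose and none fell, next to 8.51% and 5.75% of all genes, with a median log2 change of 0.40. Slfn1, a schlafen family growth regulator, was at 4.25, 4.86 and 3.77 CPM with LPS and 8.46, 9.01 and 7.25 CPM with the adduct and rose 1.92-fold (adjusted p = 0.00037). Mx2, an antiviral GTPase gene, was at 152, 178 and 138 CPM and 271, 279 and 235 CPM and rose 1.68-fold (adjusted p = 0.000116). Slfn4 rose 1.70-fold from 466 ± 68.6 to 791 ± 60.9 CPM. Reads of the schlafen, Oas and Ifit families can be shared between near-identical copies, and the counting program was not given in the sources used here. Of the factors that drive these genes, Irf7 and Stat2 rose by 0.45 and 0.40 on the log2 scale, and Irf9 was not called at 0.11. Ifnb1, the interferon beta gene, was at 0.166, 0.670 and 0.485 CPM with LPS and 0.655, 0.790 and 0.887 CPM with the adduct. The groups overlapped, and its log2 change of 0.82 was not called (95% interval -0.33 to 1.98, adjusted p = 0.382). The number of interferon-stimulated genes higher was 25 without LPS replicate 3, 26 without adduct replicate 1, 24 without adduct replicate 2, and 15 with only the 2 groups in the model, with none lower in any of these. The median log2 change ran from 0.32 to 0.48 over the fits listed in the closing section.

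Antigen presentation genes gave 8 of 25 higher and none lower, next to 8.51% and 5.75% of all genes. Tap1 and Psmb9, which encode a peptide transporter and an immunoproteasome subunit, lie in the same stretch of chromosome 17. Tap1 was at 233, 281 and 204 CPM and 419, 394 and 329 CPM, and rose 1.59-fold (adjusted p = 0.000889). Psmb9 rose 1.57-fold and Cd40, a costimulatory receptor, 1.40-fold. With only the 2 groups in the model Tap1 and Cd40 were not called (adjusted p = 0.0656 and 0.0682). The list then had 3 members higher, and 5 without adduct replicate 1 or 2. The class I genes H2-K1 and H2-D1 and their partner B2m were not called, at log2 changes of 0.06, 0.07 and 0.01.

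Some immediate early genes and phosphatases that end MAP kinase signals were higher at 6 h. Dusp1, which encodes a phosphatase of p38 and JNK (ENSMUSG00000024190, chromosome 17, 26505591 to 26508472), was at 67.2, 81.6 and 74.3 CPM with LPS and 143, 143 and 135 CPM with the adduct. It rose 1.89-fold (log2 0.92, SE 0.06, adjusted p = 5.37e-12), and untreated cells had 78.5 ± 3.69 CPM, close to the LPS level. Zfp36, whose product tristetraprolin destabilises cytokine mRNAs, was at 161, 172 and 145 CPM and 326, 304 and 237 CPM and rose 1.81-fold (adjusted p = 9.58e-05). Its relative Zfp36l1 rose 1.47-fold. Klf10, an early gene also induced by TGF-beta, was at 13.0, 15.2 and 19.3 CPM and 29.7, 31.8 and 28.6 CPM and rose 1.89-fold. Egr1 rose 1.91-fold and Fos 1.39-fold. Of the phosphatases for ERK and other MAP kinases, Dusp5 was at 72.7, 78.5 and 65.5 CPM and 114, 117 and 112 CPM and rose 1.58-fold, and Dusp6 rose 1.29-fold. Jun, Nr4a1 and Dusp4 were not called, at log2 changes of -0.02, 0.12 and -0.13. In all 11 of 27 immediate early genes and 4 of 14 feedback genes rose and none of either list fell. Among all tested genes 8.51% rose and 5.75% fell. With only the 2 groups in the model 2 members of each list fell, and without LPS + CA replicate 2 1 and 2.

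Genes that cyclic AMP induces gave 8 of 20 higher and none lower, next to 8.51% and 5.75% of all genes. The list shares Il10, Dusp1 and Fos with those above, and its other called members were Thbs1, Crtc3, Pde3b, Creb5 and Id1, each below 1.5-fold. Crem, Nr4a2 and Sik1 were among the 12 members not called, at log2 changes of -0.11, 0.16 and 0.04. Without LPS replicate 1, LPS replicate 3 or adduct replicate 2 the list had 5 members higher.

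The D cyclins, which bring cells through G1, rose together. Ccnd2 was at 6.02, 7.54 and 6.36 CPM with LPS and 12.8, 15.2 and 13.7 CPM with the adduct and rose 2.09-fold (adjusted p = 4.81e-07). Ccnd1, which stood at 266 ± 3.68 CPM in untreated cells, was at 34.5, 35.2 and 34.0 CPM with LPS and 66.7, 67.6 and 53.4 CPM with the adduct, and rose 1.81-fold (adjusted p = 0.000103). Ccnd3 rose 1.51-fold and Myc 1.35-fold, while Mxd1, which encodes a protein that opposes MYC, rose 1.97-fold from 46.6 ± 4.84 to 91.8 ± 12.4 CPM. The list had 7 of 19 higher and none lower. Genes of DNA replication had 4 of 37 higher and 1 lower and mitosis genes 0 of 30 higher and 1 lower, against 8.51% and 5.75% of all genes. The replication genes that rose numbered 2 without LPS replicate 2 or adduct replicate 2, and 8 without LPS + CA replicate 2. Of the p53 targets 6 of 22 rose and 2 fell, but 1 fell without LPS replicate 2, LPS replicate 3 or adduct replicate 2 and none without adduct replicate 1. The rises included Pmaip1, which encodes the cell death protein NOXA. Pmaip1 was at 12.6, 11.01 and 13.8 CPM and 24.1, 23.1 and 22.4 CPM, and rose 1.85-fold (adjusted p = 4.36e-08).

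Among the metabolic lists, that of glycolysis and the response to low oxygen had the largest share of members called higher. Bnip3, which encodes a mitophagy receptor induced by HIF-1 (ENSMUSG00000078566, chromosome 7, 138890836 to 138909506), was at 17.1, 19.4 and 23.8 CPM with LPS and 49.97, 54.0 and 67.3 CPM with the adduct, and rose 2.85-fold (log2 1.51, SE 0.13, adjusted p = 3.14e-07). Pdk1, which encodes a kinase that holds pyruvate back from mitochondria, was at 14.8, 13.3 and 18.3 CPM and 25.3, 24.8 and 29.2 CPM and rose 1.71-fold (adjusted p = 1.45e-05). Ndrg1 was at 110.1, 109.6 and 110.4 CPM and 166, 154 and 160.4 CPM, rose 1.45-fold (adjusted p = 3.2e-09), and is a common marker of low oxygen. Of the glycolytic enzymes Pfkl rose 1.46-fold and Tpi1 and Ldha by 0.47 and 0.21 on the log2 scale, whereas Gapdh, Pgk1 and Pkm were not called at log2 changes of 0.03, 0.11 and -0.05. The glucose transporter gene Slc2a1 rose by 0.26, and Egln1, an oxygen sensor that HIF-1 itself induces, by 0.42, while Hif1a and Vegfa were not called, at 0.16 and -0.26 on the log2 scale. Of 34 tested members 17 rose and none fell, next to 8.51% and 5.75% of all genes. The median log2 change was 0.22, and 15 to 17 members were higher whichever of the 6 libraries was left out.

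The arrestin-domain genes Txnip and Arrdc3, which limit glucose uptake and receptor signalling, both rose. Txnip, which binds thioredoxin, was at 191, 192 and 179.8 CPM with LPS and 335, 316 and 299.7 CPM with the adduct, and rose 1.69-fold (log2 0.76, SE 0.05, adjusted p = 1.04e-11). Arrdc3 (ENSMUSG00000074794, chromosome 13, 80883384 to 80896042) was at 4.64, 4.13 and 5.33 CPM and 14.6, 12.2 and 11.5 CPM, and rose 2.70-fold (adjusted p = 4.76e-08). Untreated cells had 26.0 ± 2.23 CPM of Arrdc3, so its adduct level lay between LPS and control.

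Oxidative stress genes were examined next. NRF2 is the transcription factor that induces detoxifying and glutathione genes. Of 40 tested NRF2 targets none rose and 8 fell, next to 8.51% and 5.75% of all genes, with a median log2 change of -0.10. Akr1b3, an aldose reductase gene, was at 379, 385 and 396 CPM with LPS and 261, 275 and 297 CPM with the adduct and fell 1.39-fold (adjusted p = 4.2e-06). The malic enzyme gene Me1 fell 1.20-fold. Hmox1, the heme oxygenase gene, was at 2017, 2024 and 2358 CPM and 2401, 2665 and 3448 CPM. All adduct libraries were above all LPS libraries, but the log2 change of 0.41 missed the threshold (95% interval 0.13 to 0.69, adjusted p = 0.0529). It passed without adduct replicate 1 (adjusted p = 0.0246), by DESeq2 (0.0187) and with the stricter filter on low counts (0.0452). The classical targets Nqo1, Gclm and Srxn1 had 95% intervals of -0.25 to 0.13, -0.21 to 0.02 and -0.21 to 0.04, and none was called. Txnrd1, the thioredoxin reductase gene, was called only just, at a log2 change of -0.13 (adjusted p = 0.0491), and lost it without any 1 library of the 2 groups other than adduct replicate 3 (adjusted p = 0.0760 to 0.188) and with a replicate term (0.0521). The number of NRF2 targets that fell was 4, 5 and 5 without LPS replicates 1, 2 and 3, and 3, 5 and 13 without adduct replicates 1, 2 and 3, and 12 without LPS + CA replicate 2.

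Several genes of amino acid supply were lower. Cth, which encodes the enzyme that makes cysteine from cystathionine, was at 241, 246 and 216 CPM with LPS and 175, 171 and 159 CPM with the adduct, and fell 1.39-fold (adjusted p = 9.62e-07). Mat2a and Ahcy, enzyme genes of the methionine cycle, fell 1.23-fold and 1.253-fold, and Slc7a11, the cystine transporter gene, was not called (log2 -0.19, 95% interval -0.37 to 0.00). Slc38a2, a neutral amino acid transporter gene, was at 834, 826 and 855 CPM and 620.1, 618 and 602 CPM, and fell 1.37-fold (adjusted p = 6.29e-09). Shmt2, a mitochondrial serine and glycine enzyme gene, was at 337, 352 and 316 CPM and 254, 246 and 239.7 CPM and fell 1.36-fold (adjusted p = 2.25e-08). Of 32 tested genes of the response to amino acid shortage driven by ATF4, 10 fell and 1, Nupr1, rose. Over all tested genes 5.75% were called lower and 8.51% higher. The transcripts of Atf4 and of its partner Ddit3 were not called, at log2 changes of -0.13 and 0.04. Of 21 genes of cysteine and methionine metabolism 3 fell and 2, Txnip and Csad, rose, next to the same shares of all genes. Csad was not called without LPS replicate 1, LPS replicate 2 or adduct replicate 2.

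Several surface receptors and lysosomal genes were lower. Clec4e, which encodes the lectin MINCLE, was at 4498, 4552 and 4439 CPM with LPS and 3002, 3230 and 3379 CPM with the adduct, and fell 1.40-fold (adjusted p = 6.93e-09). Adgre1, the gene of the macrophage marker F4/80, was at 375, 367 and 368 CPM and 263, 253 and 251 CPM and fell 1.45-fold (adjusted p = 2.26e-08). Cd14, the LPS co-receptor gene, fell 1.28-fold, Tlr4 1.251-fold and Tlr2 1.22-fold. Tlr9 and Tlr6 rose 1.497-fold and 1.49-fold, and Tlr1, Traf6 and Tlr13 also rose. Traf6 and Tlr13 lost the call without LPS replicate 2 (adjusted p = 0.104 and 0.131). Tlr13 also lost it without LPS replicate 1 (adjusted p = 0.175). The same held for Tlr13 with relative log expression factors, no filter, a replicate term and DESeq2 (adjusted p = 0.0543 to 0.0589). Of 27 tested genes of the LPS receptor and its adaptors 5 rose and 3 fell, next to 8.51% and 5.75% of all genes. Of 19 scavenger and lectin receptor genes 2 rose and 4 fell, and none rose without LPS replicate 3. Lyz2 and Csf1r, both macrophage markers, fell 1.28-fold and 1.21-fold, so that 5 of 9 tested macrophage markers fell and 2, Fcgr1 and Mertk, rose. Mertk was not called without LPS replicate 2, LPS replicate 3, adduct replicate 1 or adduct replicate 2. In bulk libraries of 1 cell line, fewer cells with a transcript and less of it per cell cannot be told apart. Of 15 genes of nitric oxide, arginine and itaconate metabolism 5 fell and 1 rose. Among those that fell were Idh1, by a log2 change of -0.28, and Slc7a2, an arginine transporter gene, of -0.27. The member that rose was Acod1, the gene of itaconate synthesis, a call lost without LPS replicate 1 (adjusted p = 0.0901). The list had 2 or 3 members lower when any of the 6 libraries was left out, and 3 without the filter on low counts. Of 27 lysosomal genes 9 fell and 1 rose, each by less than 1.5-fold, and 5 fell without LPS replicate 1. Among the transcription factors of the lineage 7 of 19 rose and 1 fell, and 4 rose without LPS replicate 1 or adduct replicate 1. Maf, which encodes c-MAF, a factor that activates Il10 in macrophages, was at 56.9, 63.6 and 52.1 CPM and 124, 122 and 96.0 CPM and rose 1.98-fold (adjusted p = 2.49e-05). Tfec, which encodes a MITF-family factor, was the member that fell, 3.03-fold from 5.19, 5.08 and 5.82 CPM to 1.97, 1.58 and 1.77 CPM.

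**Figure D4:**
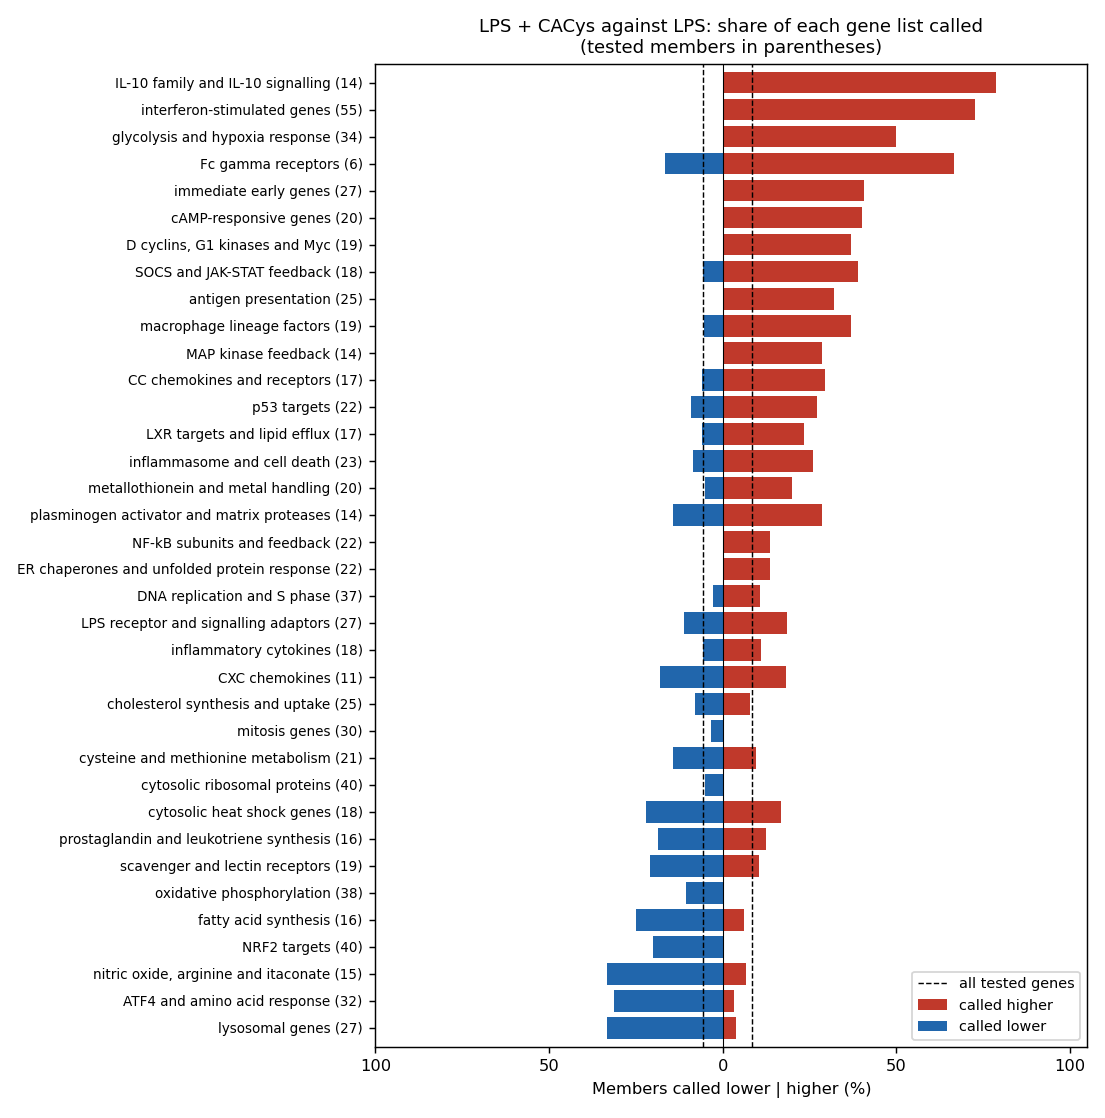
Bars give the percent of tested members of each gene list with at least 5 of them, cell type markers left out, called higher (red, right) or lower (blue, left) with CACys, and dashed lines the 8.51% and 5.75% of all tested genes called in each direction. Among the lists drawn, the interleukin 10 and interferon lists reach farthest to the right, and the lysosomal, ATF4 and nitric oxide lists farthest to the left.

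Transporter and protease inhibitor genes were among the largest falls. Slc6a12, which encodes the betaine and GABA transporter BGT1 (ENSMUSG00000030109, chromosome 6, 121342574 to 121365773), was at 174, 176 and 174 CPM with LPS and 76.7, 78.8 and 81.8 CPM with the adduct. It fell 2.21-fold (log2 -1.14, SE 0.05, adjusted p = 7e-16), to below the 130 ± 6.27 CPM of untreated cells. Serpinb2, which encodes a plasminogen activator inhibitor of activated macrophages (ENSMUSG00000062345, chromosome 1, 107500892 to 107525600), was at 51.2, 51.0 and 54.7 CPM and 23.8, 22.7 and 26.2 CPM and fell 2.16-fold (adjusted p = 9.69e-09). Rhoq, a small GTPase gene, was at 191, 179 and 196 CPM and 122, 117 and 124 CPM and fell 1.56-fold (adjusted p = 3.95e-10). Vegfb, Serpinb3b, St18, Mturn and Rnf180 completed the genes with the largest falls, at 1.82-fold, 1.75-fold, 1.66-fold, 1.64-fold and 1.92-fold. Kifc3 fell 1.63-fold, and its call was lost without LPS replicate 1, adduct replicate 1 or adduct replicate 3 (adjusted p = 0.0701, 0.0555 and 0.0581).

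Several genes with the smallest adjusted p among those that rose were lower with LPS alone than in untreated cells. Vsir, which encodes the immune checkpoint protein VISTA, was at 155 ± 2.52 CPM in untreated cells, 16.1, 16.9 and 17.0 CPM with LPS and 31.6, 39.7 and 32.8 CPM with the adduct, and rose 2.08-fold (adjusted p = 1.25e-10). Tgfbi, which encodes a matrix protein induced by TGF-beta, was at 886 ± 32.1 CPM untreated, 256, 284 and 285 CPM with LPS and 469, 495 and 495 CPM with the adduct, and rose 1.77-fold (adjusted p = 5.1e-10). Rin2, a RAB5 exchange factor gene, was at 168 ± 4.0 CPM untreated, 50.1, 51.5 and 48.9 CPM with LPS and 102, 101 and 86.3 CPM with the adduct, and rose 1.92-fold (adjusted p = 3.27e-11). In these 3 genes the adduct libraries lay between the LPS and untreated libraries, nearer to LPS. Mtss1 and Nek6 also lay between, at 225 ± 6.99 and 101 ± 1.93 CPM untreated, 111 ± 0.474 and 31.4 ± 0.679 with LPS, and 195 ± 10.6 and 55.9 ± 2.26 with the adduct. Tifab, an inhibitor gene of TRAF6 signalling, had the smallest adjusted p of all that rose, 3.89e-12. It was at 56.8 ± 3.03 CPM untreated, 32.2, 32.1 and 36.3 CPM with LPS and 68.1, 67.8 and 76.1 CPM with the adduct, above both. Among the largest rises, Zfp395 and Zcchc24 were likewise highest in untreated cells, at 10.8 ± 0.264 and 10.51 ± 1.16 CPM, and rose 2.89-fold from 1.06 ± 0.156 and 2.58-fold from 1.17 ± 0.104 CPM. Krt16 and Heatr9 were near 0 untreated, at 0.0316 ± 0.0547 and 0.0497 ± 0.0509 CPM, and rose 2.82-fold from 2.82 ± 0.239 and 2.71-fold from 3.19 ± 0.557 CPM. Ly6a, the interferon-responsive gene of the surface antigen Sca-1, was at 16.2, 22.6 and 19.4 CPM and 44.4, 50.1 and 40.9 CPM and rose 2.32-fold (adjusted p = 8.48e-10).

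The adduct was next set against its parent acid at the same dose and time, both with LPS. CACys carries a cysteine on caffeic acid, and this comparison and that between the adducts are the 2 pairs of compounds tested, each with p adjusted over all genes. The cells given CACys had higher interferon-stimulated genes and lower NRF2 targets than those given CA. Of 13251 genes 3589 (27.1%) were called, 2011 (15.2%) higher and 1578 (11.9%) lower with CACys. With only these 2 groups in the model 2145 were called, and 743 of them were lower. All 55 tested interferon-stimulated genes were higher, at a median log2 difference of 0.91, and 54 or 55 were higher under each alternative, including that without LPS + CA replicate 2. Mx1 was at 72.5, 64.3 and 73.5 CPM with CA and 217, 208 and 167 CPM with CACys, a difference of 2.82-fold (adjusted p = 1.81e-07), with 112, 133 and 100 CPM in LPS alone. Fcgr1 was at 64.9, 62.2 and 71.1 CPM with CA, below its LPS libraries, and the difference to CACys was 4.21-fold (adjusted p = 1.13e-06).

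Several cytokine genes that CACys left uncalled against LPS differed from CA. Il1b was at 389, 536 and 516 CPM with CA, 936, 890.1 and 828 CPM with CACys and 874, 846 and 597 CPM with LPS alone, and was 1.84-fold higher with CACys than with CA (adjusted p = 0.000651). Nos2, which encodes inducible nitric oxide synthase, was at 232, 224 and 269 CPM with CA and 523, 467 and 388 CPM with CACys, and was 1.90-fold higher with CACys (adjusted p = 7.22e-05). In LPS alone it was at 441, 442 and 372 CPM, and the 95% interval of CACys against LPS was -0.13 to 0.40 on the log2 scale. Ccl7, a monocyte chemokine gene, was at 19.6, 28.6 and 24.0 CPM with CA and 74.2, 72.7 and 57.4 CPM with CACys, 2.82-fold higher (adjusted p = 1.24e-06). Cxcl2 was the opposite, at 4494, 5005 and 4646 CPM with CA and 2.22-fold lower with CACys (adjusted p = 4.74e-15). Ifnb1 was at 0.0476, 0.699 and 0.107 CPM with CA, and the difference was not called (log2 1.34, 95% interval 0.15 to 2.53), except without LPS + CA replicate 2 (adjusted p = 0.00147). For Tnf the difference was not called (log2 -0.29, 95% interval -0.68 to 0.10), except without LPS + CA replicate 1 (adjusted p = 0.0454). Opn3, an opsin gene, was at 68.2, 75.1 and 59.7 CPM with CA and 25.2, 28.8 and 34.5 CPM with CACys, 2.29-fold lower (adjusted p = 1.83e-08), with 36.9 ± 0.480 CPM in LPS alone.

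Of 40 NRF2 targets 33 were lower with CACys than with CA and 1, the repressor gene Keap1, was higher, at a median log2 difference of -0.35. In this comparison 11.9% of all tested genes were lower and 15.2% higher. Srxn1, the sulfiredoxin gene, was at 1630, 1553 and 1478 CPM with CA and 895, 922 and 1096 CPM with CACys, 1.60-fold lower (adjusted p = 6.32e-09). The LPS libraries had 999, 1005 and 1080 CPM, overlapping those with CACys. Gstm1, a glutathione transferase gene, was at 130.1, 181 and 155 CPM with CA and 86.4, 96.3 and 95.6 CPM with CACys, 1.67-fold lower (adjusted p = 7.32e-06). Between 30 and 34 targets were lower under each alternative run. Hmox1 was not called between the compounds (log2 -0.28, 95% interval -0.57 to -0.00), except without CACys replicate 3 (adjusted p = 0.00881). Of 21 genes of cysteine and methionine metabolism 12 were lower, among them Gclc and Gss, which encode the enzymes of glutathione synthesis, 1.43-fold and 1.42-fold lower. Ribosomal protein genes were lower in 18 of 40 with CACys, but in 5 without LPS + CA replicate 2, 32 without LPS + CA replicate 3, 5 without CACys replicate 1, 31 without the filter on low counts and 1 with only the 2 groups in the model. Replicate 2 of LPS + CA had 5.28% of its counts in ribosomal protein genes, against 3.88% to 4.60% in the other libraries of the series, and the part of this in the result was not tested.

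CGACys, the adduct of the quinic acid ester, gave a profile in which few genes differed from CACys at the same dose. Of 13251 genes 239 (1.8%) were called, 135 (1.02%) higher and 104 (0.785%) lower with CGACys. Of 25 genes of cholesterol synthesis and uptake 15 were lower with CGACys and none higher, at a median log2 difference of -0.29, and 10 to 16 were lower under each alternative. Acat2, a thiolase gene of sterol synthesis, was at 29.7, 32.2 and 29.5 CPM with CACys and 19.7, 20.6 and 18.8 CPM with CGACys, 1.55-fold lower (adjusted p = 3.14e-06), and at 43.9, 39.8 and 40.2 CPM with LPS alone. Lss, the lanosterol synthase gene, was at 50.4, 46.1 and 49.5 CPM and 32.4, 33.3 and 36.6 CPM, 1.43-fold lower (adjusted p = 1.87e-05). Against LPS alone, CACys itself left 21 of these 25 genes uncalled, with 2 higher and 2 lower. Marco, a scavenger receptor gene, was at 356, 350.5 and 391.5 CPM with CACys and 249.6, 235 and 255 CPM with CGACys, 1.49-fold lower (adjusted p = 1.82e-06). Cxcl11 was at 117, 109 and 93.9 CPM with CGACys, 1.62-fold higher than with CACys (adjusted p = 0.000479), and Krt16 was 2.08-fold higher. Ccnd2 was 1.60-fold higher and Txnip 1.24-fold higher with CGACys. Cxcl2 was at 1760, 1717 and 1881 CPM with CGACys, 1.19-fold lower (adjusted p = 0.00904), a call lost without CACys replicate 3, CGACys replicate 1 or CGACys replicate 2 (adjusted p = 0.0856, 0.0661 and 0.0805).

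For other leading genes no difference between the adducts was called. The 95% interval of the log2 difference was -0.51 to 0.03 for Il10, -0.15 to 0.55 for Fcgr1, -0.22 to 0.27 for Bnip3, -0.10 to 0.14 for Ccl3 and -0.33 to 0.45 for Tnf, and a difference inside those bounds was not resolved. Of 55 interferon-stimulated genes 7 were higher with CGACys, next to 1.02% of all tested genes. The number was 24 with a replicate term, 26 without the filter, 19 by DESeq2 and 18 with only the 2 groups in the model. It was 2 without CACys replicate 3, CGACys replicate 1 or CGACys replicate 2. The count over all genes was as sensitive: it was 629 without LPS + CA replicate 2, 157 and 88 without CACys replicates 1 and 3, and 87 and 95 without CGACys replicates 1 and 2.

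**Figure D5:**
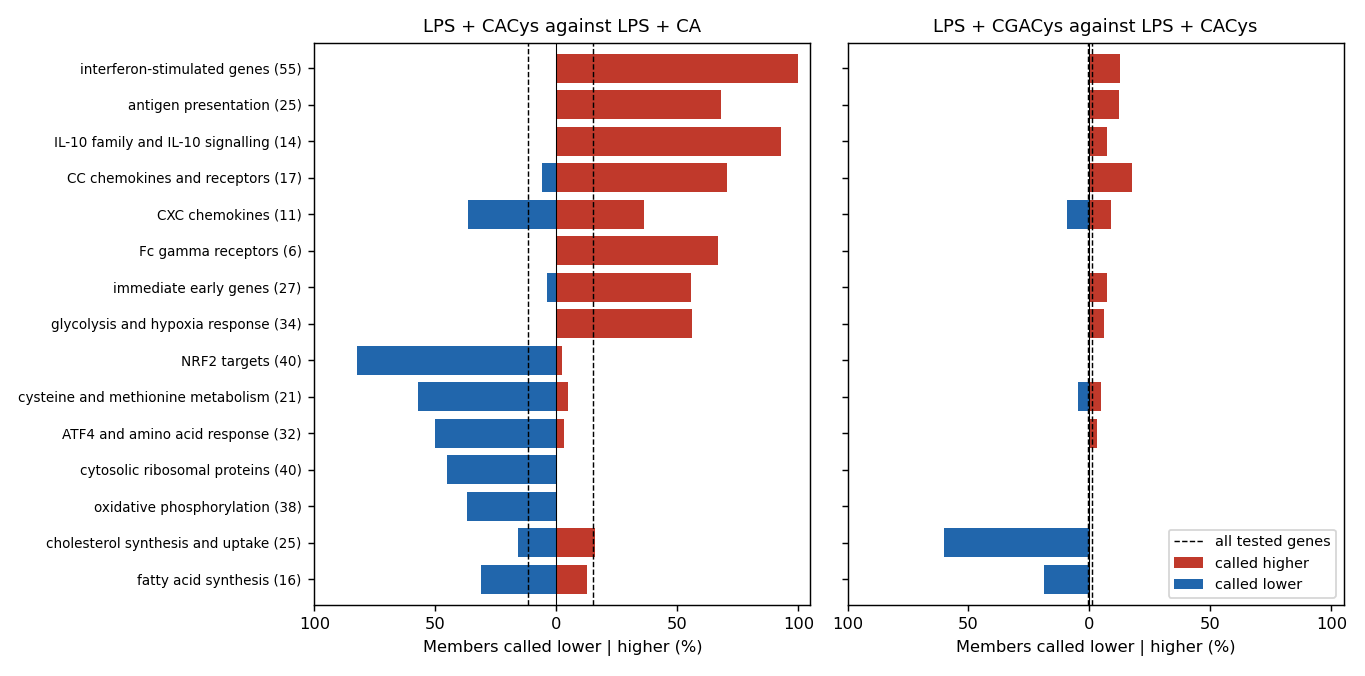
Bars give the percent of tested members of 15 gene lists called higher (red, right) or lower (blue, left), for CACys against CA on the left and CGACys against CACys on the right, and dashed lines the percent of all tested genes called. All 55 interferon-stimulated genes were higher and 33 of 40 NRF2 targets lower with CACys than with CA, and the cholesterol list stands out between the adducts.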

How the data were processed

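RAW264.7 libraries of 6 groups were measured by RNA sequencing, and the authors deposited raw counts per Ensembl gene. Per the submitters' processing notes HISAT, DESeq2 and the mm10 genome were used. The counting program, annotation release and strand setting were not given in the sources used here. All 18 libraries were fitted in 1 edgeR 4.0.16 model of 6 groups (R 4.3.3), with genes kept by filterByExpr and trimmed mean of M values (TMM) scaling. Quasi-likelihood F tests were adjusted by Benjamini-Hochberg over 13251 genes and called at 0.05. CPM values were computed with TMM-adjusted library sizes. The standard error is the absolute log2 change over the square root of F. Library totals ran from 16105817 to 25624935, and the biological coefficient of variation was 5.68%. Coordinates are those of GRCm38.p6 in RefSeq, and 12620 tested genes were matched by symbol or unique synonym. A symbol with 2 identifiers counts once in a list.

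The members and gene lists were chosen with earlier results of these data known. Genes were named by a rule that took the 12 largest changes and 8 smallest adjusted p in each direction, among called protein-coding genes whose groups did not overlap and whose higher group averaged 50 counts or more (no pseudogenes or shared symbols). It added up to 5 called members of each list in each direction, and 14 preset inflammation and NRF2 genes. For the other comparisons it took 8 genes a direction and up to 3 members a list. Uncalled list members other than the preset genes, and Creb5, Id1, Pde3b, Etv3, Sbno2, Irf7, Stat2, Tpi1, Ldha, Slc2a1 and Egln1, were chosen after their values were seen. Alternatives were relative log expression (RLE) factors, a filter at 1 CPM (any 3 libraries), none at all, a term for replicate number, only the 2 groups compared, DESeq2 1.42.0 and omission of single libraries. Some list members are counted but not reported here by name. No pair of replicates agreed within sampling noise (chi-square per degree of freedom at least 2.33).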

Additional observations from a re-analysis of the deposited data

How the results depend on the processing

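None of the named genes called in a comparison changed sign under the alternatives run. Against LPS alone the count of called genes ran from 1223 to 2527 with 1 library left out, from 748 to 1425 for genes that rose and from 473 to 1102 for those that fell. For CACys against CA these ranges were 2747 to 3977, 1601 to 2079 and 1146 to 1898, and with only the 2 groups compared 2145 were called, 743 of them lower. For CGACys against CACys they were 87 to 198, 46 to 127 and 40 to 71, and without LPS + CA replicate 2 the counts were 629, 333 and 296. That comparison gave 409 called and 261 higher without a filter, 370 and 217 by DESeq2, and 560, 319 and 241 (called, higher, lower) with only the 2 groups. The cause of these shifts was not tested.

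Over all tested genes, deviations from the group mean in same-numbered CACys and LPS libraries correlated at 0.0313, -0.00994 and 0.0411. Libraries with different numbers correlated at -0.0817 to 0.0516. A correlation over all genes cannot show whether smaller sets of genes pair by replicate number, and this was not tested. Fcgr1, Mx2 and Tnf were highest in replicate 2 and lowest in replicate 3 of both groups, whereas the order differed between the groups for Mx1 and Tap1. With a replicate block 1853 genes were called against LPS, 3547 between CACys and CA and 273 between the adducts. Of 201 named genes called against LPS 137 kept the call under every alternative. Genes of low counts had wide intervals, with counting noise and spread between libraries not separated: Cxcl1, at 1.72 to 2.23 CPM with LPS, had a 95% interval of -1.37 to -0.12 in log2.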
